A study of Mus musculus with 30 samples.

Results

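9 genes of the adrenergic and cyclic AMP (cAMP) pathway were followed across 30 bulk RNA libraries of mouse fat. The members were chosen by symbol: the receptors Adrb1, Adrb3, Adra1a and Adra2a, the receptor Gpr3, the adenylyl cyclase Adcy3 and the phosphodiesterases Pde3b, Pde4b and Pde4d. All 9 were found among the 21652 genes of the tables, each in 1 row. Male mice of the C57BL/6J strain, 7 to 8 weeks old, gave 2 depots: inguinal white fat (iWAT), which lies under the skin, and brown fat (BAT). The controls of each depot are labelled 22 °C, and cold was 6 °C for either 6 h or 24 h, with 5 libraries in each of the 6 groups. The labels name no altered gene or drug in any group, and they put the animal room at 24 ± 2 °C. The labels do not say that replicates came from separate animals, so the p-values measure the spread between libraries.

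As background, noradrenaline from sympathetic nerves reaches fat cells in the cold and binds beta receptors, which act through the stimulatory G protein on adenylyl cyclase. The cAMP so made activates protein kinase A, which drives lipolysis and the thermogenic gene programme, and phosphodiesterases end the signal by breaking cAMP down. Alpha-1 receptors act through calcium instead, alpha-2 receptors restrain adenylyl cyclase, and Gpr3 is a receptor that stimulates cAMP production without a ligand having to bind.

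The libraries held 25.3 to 41 M assigned counts (M, 1e6). Tissue markers fitted the labels: the posterior patterning gene Hoxc10 was at 14.8 to 20.5 CPM in iWAT at 22 °C and at 0 in all 5 BAT libraries at 22 °C, and the brown depot gene Zic1 was at 10 to 26.8 CPM in BAT and at most 0.0262 CPM in iWAT at 22 °C. CPM here are counts per 1e6 counts, scaled by TMM factors. In all, 4 libraries carried much skeletal muscle RNA, taken as over 3000 CPM summed over 10 muscle markers. The sum was 3490 in library 2 of iWAT at 22 °C, 5280 and 8450 in libraries 4 and 5 of BAT at 22 °C and 4320 in library 5 of BAT at 24 h. In iWAT the other 14 libraries had sums of 1.96 to 7.88 CPM. The remaining BAT libraries reached 1980 CPM at 22 °C, 1490 CPM at 6 h and 1310 CPM at 24 h, so leaving out the 4 does not remove all muscle RNA from BAT. Calls of members that change without these 4 libraries are given below, from a fit chosen after seeing the data. In bulk tissue, fewer cells of a type and less RNA per cell cannot be told apart.

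Promoter sequences are shown for Gpr3, Adcy3 and Pde4d, the members that edgeR called higher after 6 h of cold in both tissues. The calls of Gpr3, a gene at low counts, support nothing, as explained below. RefSeq promoters (build GRCm38.p6, another build than the GRCm39 of the counts) were found for 6 of the 9 members, 10 promoters in all, and none was used for Adrb3, Adra1a or Pde3b. Capitals mark the short form of the cAMP response element, TGACG or its reverse complement CGTCA, in the 250 bases before each listed start, on the strand of the gene. The Gpr3 stretch is chr4:133212537-133212786 on the minus strand. Those of Adcy3 are chr12:4133147-4133396 (promoter 1) and chr12:4133903-4134152 (promoter 2), and that of Pde4d is chr13:108653927-108654176, all on the plus strand.
Gpr3: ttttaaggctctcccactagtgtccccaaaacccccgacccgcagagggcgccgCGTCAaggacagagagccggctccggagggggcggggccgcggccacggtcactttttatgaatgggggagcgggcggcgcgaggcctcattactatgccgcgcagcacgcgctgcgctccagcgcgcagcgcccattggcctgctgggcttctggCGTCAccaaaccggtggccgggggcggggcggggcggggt
Adcy3 promoter 1: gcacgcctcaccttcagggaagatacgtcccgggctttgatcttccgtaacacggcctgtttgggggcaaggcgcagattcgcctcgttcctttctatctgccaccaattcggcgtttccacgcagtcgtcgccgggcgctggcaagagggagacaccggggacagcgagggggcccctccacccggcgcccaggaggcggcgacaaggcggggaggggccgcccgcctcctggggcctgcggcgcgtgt
Adcy3 promoter 2: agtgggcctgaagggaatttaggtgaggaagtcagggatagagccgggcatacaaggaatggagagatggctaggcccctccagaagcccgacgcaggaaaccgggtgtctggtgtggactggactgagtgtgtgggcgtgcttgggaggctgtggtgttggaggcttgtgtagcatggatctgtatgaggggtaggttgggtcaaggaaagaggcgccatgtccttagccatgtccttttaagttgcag
Pde4d: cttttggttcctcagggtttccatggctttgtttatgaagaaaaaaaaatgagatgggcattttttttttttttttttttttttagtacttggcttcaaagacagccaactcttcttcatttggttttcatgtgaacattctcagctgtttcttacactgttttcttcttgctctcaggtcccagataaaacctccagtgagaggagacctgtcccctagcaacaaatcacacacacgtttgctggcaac
The Gpr3 promoter held 2 such sites, beginning 196 and 40 bases before the start. The Adrb1, Adra2a and first Pde4b promoters each held 1, beginning 90, 69 and 34 bases before the start, and these letters were not in the other windows shown or in the remaining 3 Pde4b windows. Of all 32851 promoters in the table, 17.8% held a short site in the same 250 bases. The full palindrome TGACGTCA, which contains the short form, was in 1.55% of all promoters and in none of the 10 windows. A match is a description of the letters. The gene counts do not separate transcripts, so a count of Adcy3, Pde4b or Pde4d covers all their starts.

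In cold iWAT, Adra1a, Adcy3, Pde3b and Pde4d rose while Adrb3 and Pde4b fell, at 6 h and again at 24 h. Gpr3 was called higher too, but it passed the filter on low counts only through the cold groups, so it had to differ and its call supports nothing. The calls were 7 of 9 members with it and 6 of 8 without it at each time. A gene was called at an adjusted p under 0.05 in edgeR's quasi-likelihood test, adjusted by Benjamini-Hochberg over all genes tested. The share of all tested genes called was 23.0% at 6 h (12.9% higher and 10.1% lower) and 23.0% at 24 h (12.8% higher and 10.1% lower). Without Gpr3, the groups did not overlap for 3 of 8 members at 6 h, beside 9.35% of all tested genes, and for 6 of 8 at 24 h, beside 16.7%. The median log2 fold change of those 8 was 0.22 at 6 h and 0.17 at 24 h, against -0.03 and -0.04 over all tested genes. Between 24 h and 6 h none of the 9 was called by edgeR, DESeq2 or limma, with 0.00731% of all genes called by edgeR and 1 member (Gpr3) at an unadjusted p under 0.05. With Gpr3 counted, the calls at 24 h were 7 without any one library, whereas those at 6 h were 4 without library 2 of the 22 °C group, without library 4 of the 6 h group or without library 5 of the 6 h group. The fit without the 4 muscle-rich libraries gave 4 calls at 6 h and 7 at 24 h.

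In BAT at 6 h, Adcy3 and Pde4d rose and Adrb3 fell. Gpr3, again let through the filter by the cold groups alone, was called higher as well, which makes 4 of 8 tested with it and 3 of 7 without it, beside 22.7% of all tested genes (12.5% higher, 10.2% lower). At 24 h, Adcy3 and Gpr3 were still called higher and no member was called lower (1 of 7 called without Gpr3), with 23.1% of all genes called (12.8% higher, 10.4% lower). From 6 h to 24 h, Pde3b and Pde4d fell and none rose, with 13.0% of all genes called (6.60% higher, 6.45% lower). Adra2a was under the filter on low counts in BAT and was not tested there. Without Gpr3, the groups did not overlap for 2 of 7 tested members at 6 h, beside 16.0% of all tested genes, and for 1 of 7 at 24 h, beside 18.2%.

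**Figure D1:**
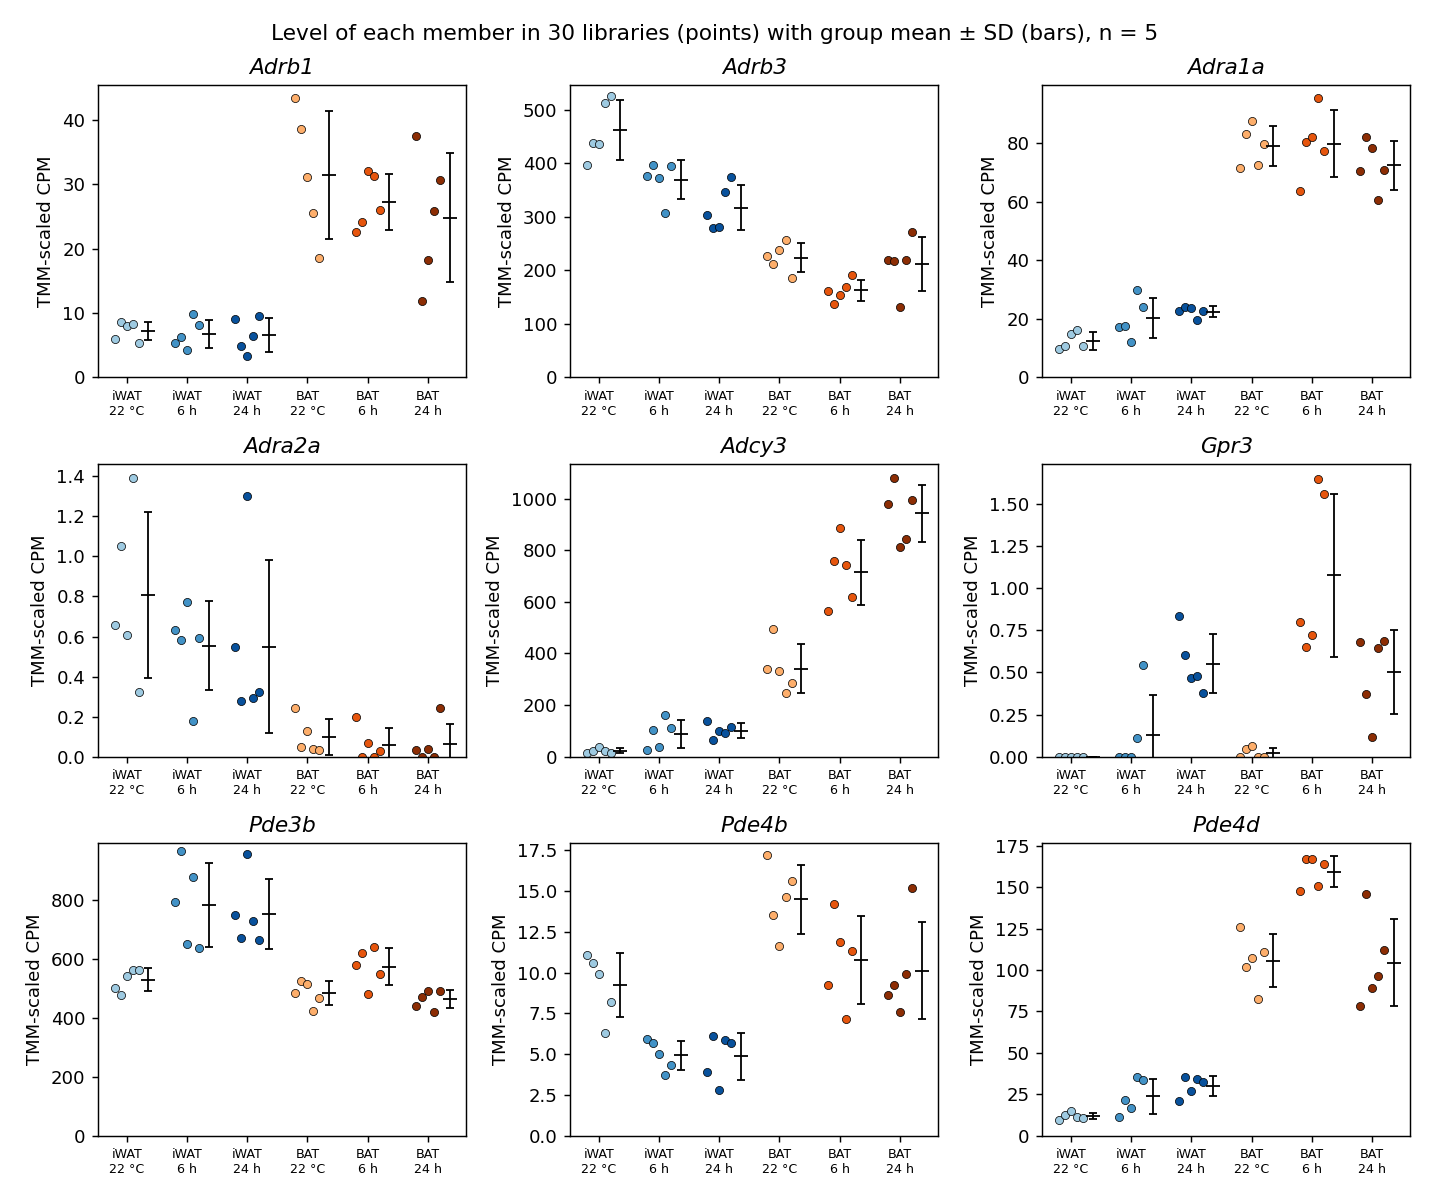
TMM-scaled CPM of each of the 9 members (vertical axes, linear from 0) in the 5 libraries of each of 6 groups (points), with the group mean and SD as bars. Adcy3 climbed through the 3 BAT groups from a mean of 340 to 714 and 942 CPM, and Adrb3 was highest in iWAT at 22 °C.

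Adrb3 (ENSMUSG00000031489), the beta-3 receptor and the main beta receptor of rodent fat cells, fell in cold iWAT. The 5 libraries held 397, 438, 437, 513 and 527 CPM at 22 °C, 376, 397, 372, 307 and 395 CPM after 6 h and 303, 280, 281, 346 and 375 CPM after 24 h. Every cold library lay below every library at 22 °C, although the highest at 6 h and the lowest control both round to 397 CPM. The mean went from 463 ± 55.2 CPM (SD, n = 5) to 370 ± 36.6 at 6 h, 1.27-fold lower (log2 fold change -0.35 ± 0.11 SE, edgeR adjusted p = 0.0359), and to 317 ± 42.1 at 24 h, 1.48-fold lower (-0.56 ± 0.11, edgeR adjusted p = 0.003). The call at 24 h held in all 21 alternatives, but the call at 6 h was lost in 11 of 21. These included leaving out library 2, 3, 4 or 5 of the 22 °C group or library 2, 4 or 5 of the 6 h group (edgeR adjusted p = 0.0504 to 0.0981), and leaving out the muscle-rich libraries (-0.35, edgeR adjusted p = 0.0697). In GENCODE vM21, 839 exonic bases of Adrb3 overlap Gm45470 on the opposite strand, a gene not analysed here.

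In BAT, Adrb3 dipped at 6 h. Its libraries held 227, 212, 239, 256 and 185 CPM at 22 °C, 162, 138, 155, 169 and 192 CPM at 6 h and 219, 218, 131, 219 and 272 CPM at 24 h. The ranges at 22 °C and 6 h overlapped only through 1 library on each side, and the 24 h libraries spread widely around library 3. Adrb3 was 1.39-fold lower at 6 h (log2 -0.47 ± 0.15, edgeR adjusted p = 0.0284) and not called at 24 h (-0.09 ± 0.15, edgeR adjusted p = 0.686). Without library 1, 3 or 4 at 22 °C, or library 2 or 3 at 6 h, the 6 h call was lost (edgeR adjusted p = 0.0513 to 0.0735). The rise from 6 h to 24 h was not called (0.38 ± 0.15, edgeR adjusted p = 0.099), but DESeq2 called it (adjusted p = 0.0468), as did edgeR without library 3 of the 24 h group (0.51, adjusted p = 0.00654).

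Adrb1 (ENSMUSG00000035283), the beta-1 receptor, was not called in any cold comparison of either tissue. It was at 7.21 ± 1.46, 6.78 ± 2.2 and 6.64 ± 2.63 CPM in iWAT at 22 °C, 6 h and 24 h, and at 31.4 ± 9.96, 27.2 ± 4.28 and 24.8 ± 10 CPM in BAT. The libraries of all 3 groups overlapped within each tissue, with 11.9 to 37.4 CPM in BAT at 24 h alone.

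Adra1a (ENSMUSG00000045875), an alpha-1 receptor, rose in iWAT from 9.58, 10.7, 15, 16.3 and 10.8 CPM at 22 °C to 17.2, 17.7, 12.2, 29.8 and 24.1 CPM at 6 h. At 24 h the libraries were close together at 22.6, 24.1, 23.7, 19.5 and 22.7 CPM, all above the controls, while at 6 h library 3 lay among the controls. The change was 1.59-fold at 6 h (log2 0.67 ± 0.2, edgeR adjusted p = 0.0249) and 1.79-fold at 24 h (0.84 ± 0.2, edgeR adjusted p = 0.00744). The 6 h call was lost in 8 of 21 alternatives. These were leaving out library 1 or 2 at 22 °C or library 4 or 5 at 6 h (edgeR adjusted p = 0.0593 to 0.0695), leaving out the muscle-rich libraries (0.64, edgeR adjusted p = 0.0593), the fit of the 2 groups compared (edgeR adjusted p = 0.0551) and limma on log2(FPKM + 1) (0.28, adjusted p = 0.0949) and log2(FPKM + 0.1) (0.39, adjusted p = 0.093). BAT held 79 ± 6.89, 79.9 ± 11.4 and 72.4 ± 8.29 CPM in the same order, with no call. Adra2a (ENSMUSG00000033717), the alpha-2 receptor that restrains cAMP, was scarce: 0.806 ± 0.415, 0.553 ± 0.222 and 0.549 ± 0.433 CPM in iWAT (5 to 58 counts a library) and 0 to 7 counts a library in BAT. Its cold changes in iWAT were not called (log2 -0.54 ± 0.5 and -0.54 ± 0.49, edgeR adjusted p = 0.443 and 0.451).

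Gpr3 (ENSMUSG00000049649) was found almost only in cold tissue, at low counts. No library of iWAT at 22 °C held a read of it, 3 of 5 libraries at 6 h also held 0 and the remaining 2 held 3 and 22 reads, and at 24 h the counts were 29, 26, 21, 21 and 14. In BAT the counts were 0, 1, 2, 0 and 0 at 22 °C, 20, 19, 21, 41 and 54 at 6 h and 22, 8, 3, 19 and 20 at 24 h. Both cold BAT groups and the 24 h iWAT group lay wholly above their controls. A floor of 3 counts over the whole iWAT group at 22 °C is 0.0133 CPM. The means of 0.131 ± 0.237 CPM at 6 h and 0.553 ± 0.178 CPM at 24 h were 9.85 and 41.6 times this floor. These folds allow for counting error in the controls but not for the spread of the cold libraries. As Gpr3 passed the filter only through the cold groups, they are a description. At 6 h the iWAT value came from library 5 and, with 3 reads, library 4 alone, and edgeR without library 5 or without the muscle-rich libraries did not call it (adjusted p = 0.162 and 0.0648). BAT means were 0.0217 ± 0.0304, 1.08 ± 0.484 and 0.501 ± 0.25 CPM. Between 24 h and 6 h of cold no difference was called in BAT (log2 -1.08 ± 0.47, edgeR adjusted p = 0.142). In GENCODE vM21, 204 exonic bases of Gpr3 overlap Cd164l2 on the opposite strand. The strand setting of the counting is not given in the sources used here, so how reads in these bases were counted is not known. Cd164l2 was at 0.592 ± 0.271, 1.36 ± 0.465 and 1.5 ± 0.882 CPM in the 3 BAT groups and was called higher at 6 h (log2 1.17 ± 0.4, edgeR adjusted p = 0.0452) and 24 h (1.31 ± 0.4, edgeR adjusted p = 0.0252). A BAT library at 22 °C held only 7 reads of it. Cd164l2 therefore passed the filter in BAT only through the cold groups, and its calls there support nothing. In iWAT it was at 1.78 ± 0.274, 3.25 ± 1.39 and 2.63 ± 0.544 CPM, called higher at 6 h (0.83 ± 0.25, edgeR adjusted p = 0.0287) and not at 24 h (0.54 ± 0.25, edgeR adjusted p = 0.133).

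**Figure D2:**
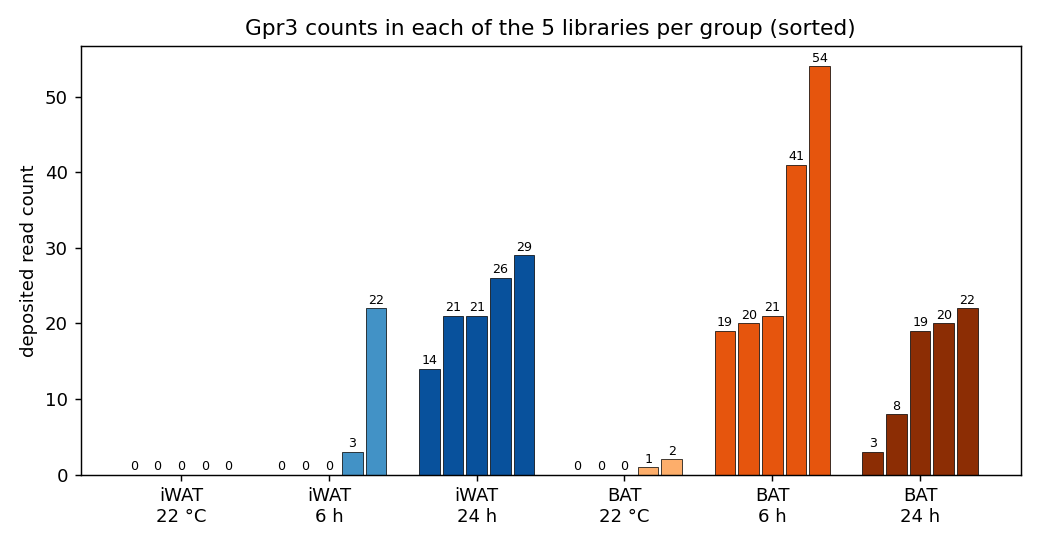
Deposited read counts of Gpr3 in each library (bars, sorted within a group; vertical axis from 0) in the 6 groups. All 5 bars of iWAT at 22 °C are at 0, and the tallest, 54 counts, is in BAT at 6 h.

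Adcy3 (ENSMUSG00000020654), an adenylyl cyclase, had the largest called change among the members with counts in every group. In iWAT the libraries held 13.7, 21.7, 38.8, 23.2 and 15 CPM at 22 °C, 27.4, 103, 38.8, 161 and 109 CPM at 6 h and 137, 62.6, 99.4, 89.8 and 116 CPM at 24 h. At 6 h library 1 lay within the range of the controls, library 3 equalled the highest control after rounding and the other 3 were well above it, and at 24 h all were above it. The fold was 3.84 at 6 h (log2 1.94 ± 0.41, edgeR adjusted p = 0.00627) and 4.44 at 24 h (2.15 ± 0.41, edgeR adjusted p = 0.00239). Both calls held in all 21 alternatives. The summed CPM of 7 brown adipocyte markers was spread in a like way over the iWAT libraries at 6 h: 988, 2300, 688, 4900 and 5310 in library order, against 155 to 1240 at 22 °C and 2930 to 4790 at 24 h. Of 6 tested, 1 was called higher at 6 h and 2 at 24 h, and Zic1 was at 0 in all 24 h libraries. Libraries 4 and 5, with the highest marker sums at 6 h, also held the highest 6 h values of Adra1a and Pde4d and the only Gpr3 reads at 6 h. The part of brown adipocyte RNA in these values was not tested.

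BAT held much more Adcy3 and showed the stepwise rise. Its libraries held 341, 495, 333, 247 and 286 CPM at 22 °C, 565, 758, 884, 744 and 620 CPM at 6 h and 979, 1080, 812, 844 and 995 CPM at 24 h. No cold library overlapped the controls, and the 2 cold groups overlapped each other. Adcy3 was 2.08-fold higher at 6 h (log2 1.05 ± 0.16, edgeR adjusted p = 0.000202) and 2.73-fold at 24 h (1.45 ± 0.16, edgeR adjusted p = 1.24e-05), and the further step from 6 h to 24 h was not called (0.4 ± 0.16, edgeR adjusted p = 0.112). On the opposite strand, Cenpo shares 1380 exonic bases with Adcy3 in GENCODE vM21, and how reads there were counted is not known either. Cenpo was at 4.18 to 6.5 CPM on average in the 6 groups and was not called in any cold comparison within a tissue.

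Compared per length, as deposited FPKM (fragments per kilobase and 1e6 counts), Adcy3 became a larger part of the adenylyl cyclase transcripts. It made up 6.13 ± 2.3% of the summed FPKM of 10 cyclases in iWAT at 22 °C, 19.7 ± 9.51% at 6 h and 24.3 ± 3.2% at 24 h. In BAT the share was 49.8 ± 5.25%, 64.7 ± 2.84% and 75.2 ± 1.94%, with no overlap between the 3 groups. Adcy6 led in iWAT with 46 ± 1.05% at 22 °C and 42.8 ± 5.31% at 24 h, and Adcy5 went from 33.9 ± 1.94% to 20.6 ± 3.96% there. The CPM of Adcy5 was not called in iWAT at 24 h (log2 -0.51 ± 0.22, edgeR adjusted p = 0.0945). On this scaling the summed FPKM of the 10 cyclases stayed level in iWAT, at 75.5 ± 7.32, 72.8 ± 17.3 and 75.8 ± 14, and was 92.8 ± 15.5, 147 ± 26.9 and 170 ± 14 in BAT. FPKM carry no TMM factors, which in iWAT were 1.19 to 1.38 at 22 °C, 1.02 to 1.2 at 6 h and 1.13 to 1.21 at 24 h. A comparison of these sums between groups therefore depends on the scaling.

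Pde3b (ENSMUSG00000030671), a phosphodiesterase through which insulin lowers cAMP in fat cells, was the most abundant phosphodiesterase of both tissues. In iWAT its libraries held 503, 478, 543, 563 and 564 CPM at 22 °C, 794, 966, 650, 878 and 638 CPM at 6 h and 748, 670, 956, 729 and 665 CPM at 24 h. All 10 cold libraries lay above all 5 controls. The fold was 1.46 at 6 h (log2 0.54 ± 0.13, edgeR adjusted p = 0.0112) and 1.41 at 24 h (0.49 ± 0.13, edgeR adjusted p = 0.0137). On log2(FPKM + 1), where the median of all genes itself fell by 0.15 at 6 h and by 0.12 at 24 h, the changes were 0.29 and 0.32 and not called by limma (adjusted p = 0.0659 and 0.0539). The summed CPM of 6 adipocyte markers was 20000 to 26100 in iWAT at 22 °C, 26100 to 32400 at 6 h and 24000 to 29100 at 24 h (3 of 6 called higher at 6 h and 1 of 6 at 24 h, none at 0), and its part in the Pde3b values was not tested. In BAT the Pde3b means were 484 ± 39.6, 574 ± 63.6 and 464 ± 31.3 CPM. The 6 h value narrowly missed the threshold (0.23 ± 0.08, edgeR adjusted p = 0.0507), and it was called by DESeq2 (adjusted p = 0.0287), by edgeR with RLE factors (0.0492) and by edgeR without library 2 at 22 °C (0.0376) or library 3 at 6 h (0.0193). From 6 h to 24 h Pde3b fell 1.24-fold (-0.31 ± 0.08, edgeR adjusted p = 0.0195). That call was lost without library 2 or 4 at 6 h or library 4 at 24 h (edgeR adjusted p = 0.0507 to 0.0576) and in the fit of all 30 libraries (edgeR adjusted p = 0.0706).

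Pde4d (ENSMUSG00000021699) and Pde4b (ENSMUSG00000028525), both cAMP-specific phosphodiesterases, moved in opposite directions in cold iWAT. Pde4d held 9.74, 12.6, 15.2, 11.5 and 10.7 CPM at 22 °C, 11.4, 21.7, 16.5, 35.5 and 33.8 CPM at 6 h and 20.7, 35.4, 27.2, 34 and 32.4 CPM at 24 h. Library 1 at 6 h lay among the controls, and no library did at 24 h. Its fold was 1.95 at 6 h (log2 0.97 ± 0.25, edgeR adjusted p = 0.0157) and 2.48 at 24 h (1.31 ± 0.25, edgeR adjusted p = 0.00261). On log2(FPKM + 1) the 6 h change was 0.41 and not called by limma (adjusted p = 0.0724).

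Pde4b, in contrast, had 11.1, 10.6, 9.94, 6.29 and 8.22 CPM at 22 °C, 5.9, 5.66, 5, 3.73 and 4.31 CPM at 6 h and 3.92, 6.13, 2.82, 5.85 and 5.66 CPM at 24 h. All cold libraries were below all controls. It was 1.91-fold lower at 6 h (-0.93 ± 0.21, edgeR adjusted p = 0.00865) and 1.92-fold lower at 24 h (-0.94 ± 0.21, edgeR adjusted p = 0.00577), and these calls held in all 21 alternatives each. Markers of other cell types were also lower in cold iWAT. The summed CPM of 6 adipose progenitor markers went from 759 to 1720 at 22 °C to 535 to 1060 at 6 h and 565 to 1170 at 24 h, with 3 of 6 markers called lower at 6 h and 1 of 6 at 24 h. Macrophage marker sums were 159 to 346, 130 to 258 and 158 to 282 CPM (3 of 6 lower at 6 h, 0 of 6 at 24 h), and endothelial sums 301 to 566, 276 to 365 and 315 to 394 CPM (3 of 7 lower at 6 h, 4 of 7 at 24 h). None of the markers of these 3 lists was at 0 in a whole iWAT group. Their part in the fall of Pde4b was not tested.

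BAT showed a passing rise of Pde4d. The libraries held 126, 102, 107, 82.4 and 111 CPM at 22 °C, 148, 167, 167, 151 and 164 CPM at 6 h and 78.5, 146, 89.2, 96.7 and 112 CPM at 24 h. Every 6 h library was above every library at 22 °C or 24 h. Pde4d was 1.49-fold higher at 6 h (log2 0.58 ± 0.14, edgeR adjusted p = 0.00721), was 1.53-fold lower at 24 h than at 6 h (-0.61 ± 0.14, edgeR adjusted p = 0.00955) and was back at the control mean at 24 h (-0.03 ± 0.14, edgeR adjusted p = 0.901). The muscle marker sums were 251 to 8450 CPM in BAT at 22 °C, 9.45 to 1490 at 6 h and 2.19 to 4320 at 24 h. Without the muscle-rich libraries the 6 h rise of Pde4d was 0.49 (edgeR adjusted p = 0.064) and the fall from 6 h to 24 h was still called (-0.63, edgeR adjusted p = 0.0175), but the fall was not called in the fit of all 30 libraries (-0.61, edgeR adjusted p = 0.0633). Pde4b in BAT was at 14.5 ± 2.11, 10.8 ± 2.67 and 10.1 ± 2.96 CPM. Neither change was called (-0.44 ± 0.19 and -0.53 ± 0.19, edgeR adjusted p = 0.109 and 0.0556), though edgeR called the 6 h change without library 2 at 6 h (-0.57, adjusted p = 0.0475). The 24 h change of Pde4b was called in 6 of 21 alternatives, among them DESeq2 (adjusted p = 0.0242), edgeR without library 5 at 24 h (-0.73, adjusted p = 0.00702) or library 3 at 22 °C (-0.6, adjusted p = 0.0464), and edgeR without the muscle-rich libraries (-0.69, adjusted p = 0.0374).

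**Figure D3:**
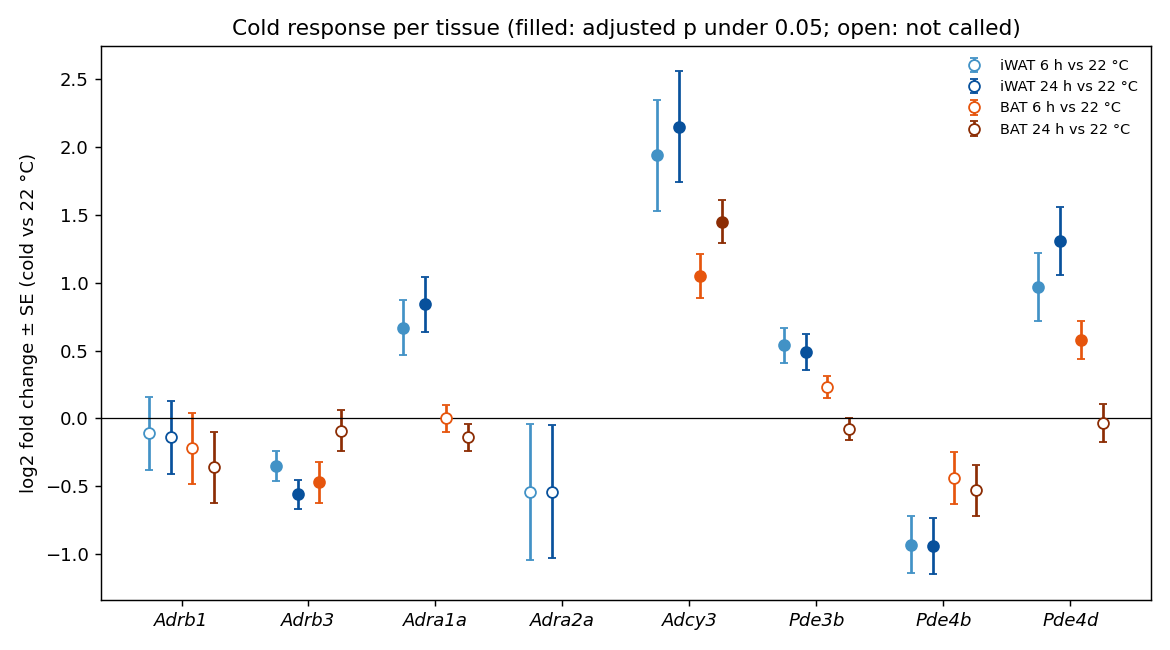
Log2 fold change of cold against 22 °C with its SE (vertical axis) for 8 members in 4 comparisons (colours), filled where called by edgeR. Gpr3 is left out because no library of iWAT at 22 °C held a read of it, and Adra2a has no BAT value because it was not tested there. Adcy3 was called in all 4 comparisons and Adrb1 in none.

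The responses of the depots were compared as the difference of log2 fold changes, BAT minus iWAT, in a fit of all 30 libraries. At 24 h, 3 of 9 members differed (3 of 7 without Gpr3 and Adra2a), all with the lower response in BAT, beside 7.81% of all genes (2.96% higher, 4.85% lower). Pde4d differed by -1.34 ± 0.3 (edgeR adjusted p = 0.00753), Adra1a by -0.98 ± 0.23 (edgeR adjusted p = 0.0104) and Pde3b by -0.57 ± 0.16 (edgeR adjusted p = 0.0232). Each of the 3 was called higher in iWAT at 24 h and not called in BAT at 24 h. Without the muscle-rich libraries, Pde4d alone stayed called (-1.46, edgeR adjusted p = 0.0285), and Adra1a (-0.96, 0.0604) and Pde3b (-0.63, 0.063) did not. Limma did not call Pde3b either, on log2(FPKM + 1) (-0.39, adjusted p = 0.0676) or log2(FPKM + 0.1) (-0.4, adjusted p = 0.0798). At 6 h edgeR called none of the 9, beside 9.40% of all genes (3.38% higher, 6.03% lower), with 2 members, Adra1a and Pde3b, at an unadjusted p under 0.05. DESeq2 called 1, Adra1a (-0.69, adjusted p = 0.0298), and limma on log2(FPKM + 1) called 1, Gpr3 (0.32, adjusted p = 0.0123). Gpr3 passed the filter only through the cold groups, so its call supports nothing, and its value turned on the constant added (1.5 on log2(FPKM + 0.1)). EdgeR also called Adra1a without library 3 or 4 of iWAT at 22 °C, library 1 or 3 of iWAT at 6 h or library 4 of BAT at 6 h (-0.74 to -0.82, adjusted p = 0.0105 to 0.0492). The Adrb3 response at 24 h did not pass (0.47 ± 0.19, edgeR adjusted p = 0.131), but it did without library 3 of BAT at 24 h (0.6, edgeR adjusted p = 0.0224) and by limma on log2(FPKM + 1) (0.6, adjusted p = 0.0412). For Adcy3 the response was not shown to differ (-0.9 ± 0.46 at 6 h and -0.7 ± 0.46 at 24 h, edgeR adjusted p = 0.215 and 0.375).

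Between depots at the same temperature, most members differed, as did most genes. At 22 °C, BAT had more Adrb1, Adra1a, Adcy3, Pde4b and Pde4d and less Adrb3 and Adra2a, 7 of 9 members beside 66.9% of all genes (32.4% higher, 34.5% lower). At 6 h of cold all 9 were called, 6 higher and 3 lower in BAT, beside 66.2% of all genes (32.6% higher, 33.7% lower), and at 24 h 8 were called, 5 higher and 3 lower, beside 63.6% (31.6% higher, 32.0% lower). Adra2a passed the filter only through iWAT and Gpr3 only through the cold groups, so their depot calls support nothing. Without both, 6, 7 and 7 of 7 members were called at 22 °C, 6 h and 24 h. Adcy3 was 15.1-fold higher in BAT at 22 °C (log2 3.92 ± 0.36, edgeR adjusted p = 2.16e-10), 8.13-fold at 6 h and 9.33-fold at 24 h. Pde4d was 8.83-fold higher (3.14 ± 0.23, edgeR adjusted p = 2.23e-12) and 3.48-fold at 24 h, Adra1a 6.34-fold (2.66 ± 0.17, edgeR adjusted p = 2.51e-13) and 3.21-fold, and Adrb1 4.36-fold (2.12 ± 0.29, edgeR adjusted p = 2.31e-07) and 3.75-fold. Adrb3 was 2.07-fold lower in BAT at 22 °C (-1.05 ± 0.14, edgeR adjusted p = 1.17e-07) and 1.5-fold lower at 24 h (-0.58 ± 0.13, edgeR adjusted p = 0.00049). Pde3b was not called at 22 °C (-0.13 ± 0.11, edgeR adjusted p = 0.294) but was 1.62-fold lower in BAT at 24 h (-0.7 ± 0.11, edgeR adjusted p = 3.42e-06). At 22 °C alone, the depot calls of Pde3b and Pde4b turned on the scaling, while their calls at 6 h and 24 h held in all 20 alternatives each. With upper-quartile factors or on log2(FPKM + 1), where the median of all genes at 22 °C was itself -0.23 and -0.34 against -0.04 with TMM factors, Pde3b at 22 °C was called lower in BAT (-0.32 and -0.72, adjusted p = 0.0112 and 3.77e-07). Pde4b, 1.57-fold higher in BAT at 22 °C with TMM factors (0.65 ± 0.21, edgeR adjusted p = 0.00768), was not called under them (0.45 and 0.02, adjusted p = 0.06 and 0.822).

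Ordered by FPKM, Adrb3 led in iWAT at 22 °C (179 ± 18.4), before Pde3b (75.8 ± 3.94), and their libraries did not overlap. All the other members were under 10 there, from Adcy3 (4.68 ± 2.06) to Gpr3 (0). In the order Adcy3, Adrb1, Adra1a, Pde4d and Pde4b, each overlapped its neighbour, while Pde4b did not overlap Adra2a below it. In cold iWAT, Adrb3 (120 ± 16.3 at 6 h, 108 ± 14 at 24 h) and Pde3b (93.7 ± 14.5 and 95.8 ± 18.1) overlapped. BAT at 22 °C had Adrb3 (57.1 ± 7.49), Adcy3 (46.8 ± 13) and Pde3b (45.6 ± 3.64) at overlapping levels, whereas in cold BAT Adcy3 stood alone on top (95.5 ± 20.5 at 6 h and 128 ± 13.5 at 24 h) with no overlap with the next. Adrb1, Adra1a and Pde4d followed in BAT at 6.23 to 11.1, and Pde4b, Gpr3 and Adra2a closed the order in all cold groups, at 0.00971 to 0.852. Of the summed FPKM of 16 cAMP phosphodiesterases, Pde3b made up 65.3 ± 1.74% in iWAT and 44.9 ± 0.706% in BAT at 22 °C, and Pde4d 7.43 ± 0.927% in BAT at 22 °C and 9.88 ± 0.786% at 6 h.

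**Figure D4:**
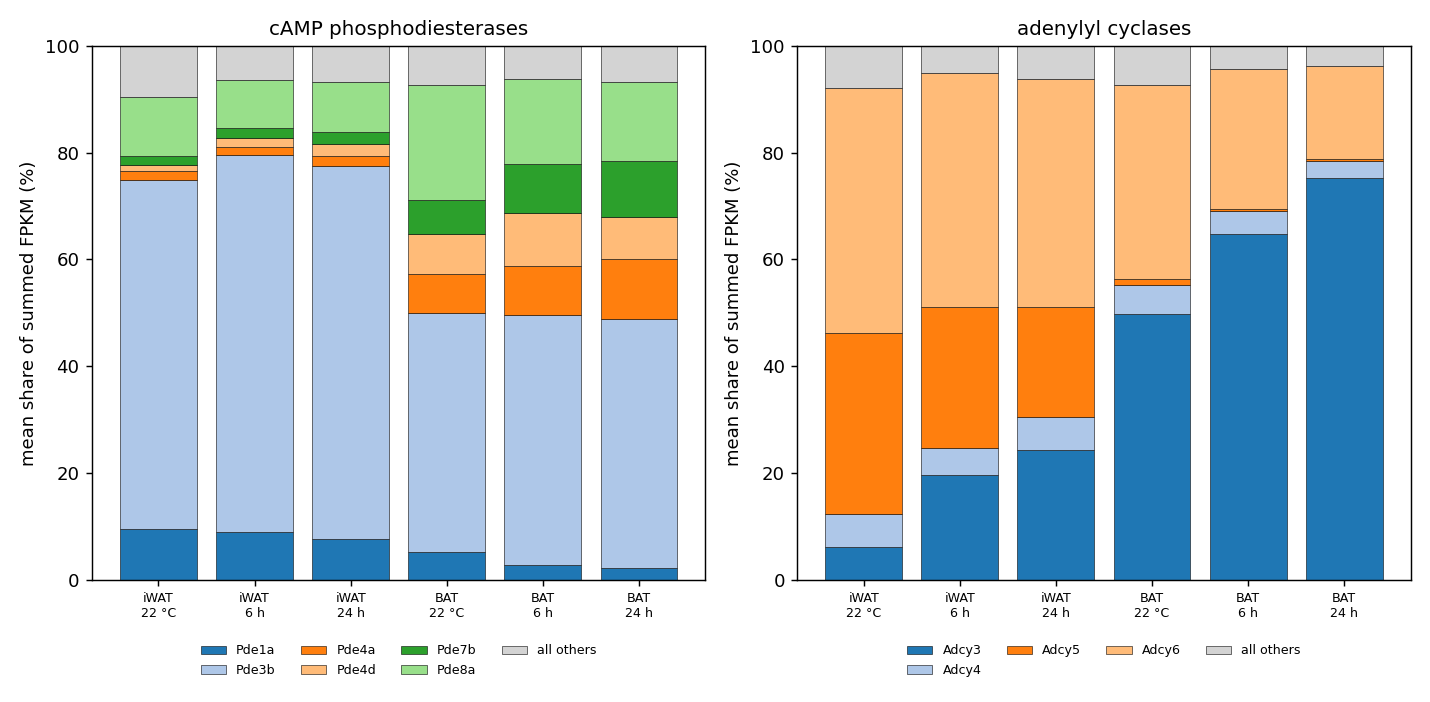
Mean share of the summed FPKM (vertical axis, percent) of 16 cAMP phosphodiesterases and 10 adenylyl cyclases in the 6 groups (bars, n = 5 libraries each), by gene, with genes that stay under 5% in every group pooled as all others. Adcy3 grew from 6.13% to 24.3% in iWAT and from 49.8% to 75.2% in BAT.

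A selection of 68 other genes of the pathway, in 8 lists, was followed too. Of 61 tested in iWAT, 4 were higher and 6 lower at 6 h (16.4% called against 23.0% of all genes, median log2 fold change -0.08), and 7 were higher and 6 lower at 24 h (21.3% against 23.0%, median -0.11). Downstream of the cyclase, Prkar2b, a regulatory subunit of protein kinase A, rose from 1270 to 1940 CPM at 6 h (0.59 ± 0.14, edgeR adjusted p = 0.0104). Gnas, which encodes the stimulatory G protein alpha subunit, rose from 478 ± 42.8 to 644 ± 116 CPM (0.41 ± 0.12, edgeR adjusted p = 0.025), and Arrb1, an arrestin that uncouples receptors, fell from 62.1 to 43.9 CPM (-0.52 ± 0.15, edgeR adjusted p = 0.0236). Pde1c, a calcium-activated phosphodiesterase, was at 0.285 CPM at 22 °C and 2.68 CPM at 24 h. It was too low at 22 °C to pass the filter there and passed only through the cold groups. Its call, 1 of the 7 higher at 24 h, therefore supports nothing. At 24 h Rgs2, a brake on G protein signals, rose from 29.7 to 107 CPM (1.84 ± 0.47, edgeR adjusted p = 0.0118). Gnai2, an inhibitory G protein subunit, fell from 153 to 115 CPM (-0.43 ± 0.1, edgeR adjusted p = 0.0066). Pkia, an inhibitor of protein kinase A that muscle also expresses, was called lower at both times (-1.09 and -1.22), and its 22 °C group holds the muscle-rich library. The part of muscle RNA in the Pkia values was not tested.

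In BAT, 13 other phosphodiesterases were tested. Of these, 4 were higher and 3 lower at 6 h (53.8% called against 22.7% of all genes) and 3 higher and 5 lower at 24 h (61.5% against 23.1%). Pde1c (1.29 to 4.72 CPM at 6 h; 1.84 ± 0.31, edgeR adjusted p = 0.000453), Pde7b (93.9 to 154 CPM; 0.7 ± 0.2, adjusted p = 0.0173) and Pde4a (70.2 to 101 CPM; 0.51 ± 0.09, adjusted p = 0.000772) rose and were still called at 24 h. Pde1a (36.2 to 22.9 and 13.8 CPM) and Pde8a (103 to 86.9 and 65.4 CPM) fell at both times. Their log2 changes at 24 h were -1.41 ± 0.13 and -0.67 ± 0.07 (edgeR adjusted p = 2.45e-06 and 3.44e-06). Slc22a3, a transporter that takes up catecholamines, fell from 76.1 to 30.1 CPM at 6 h and 25.2 CPM at 24 h (-1.35 ± 0.16 and -1.61 ± 0.16, edgeR adjusted p = 2.49e-05 and 4.54e-06). The cAMP-responsive factor gene Crem went from 27 ± 2.81 to 31.8 ± 4.49 and then 19.4 ± 1.92 CPM, a rise that was not called (0.22 ± 0.1, edgeR adjusted p = 0.142) and a fall between 6 h and 24 h that was (-0.72 ± 0.1, edgeR adjusted p = 0.000396). All 57 tested genes of these lists gave 7 higher and 6 lower at 6 h (22.8% called) and 8 higher and 10 lower at 24 h (31.6%), with medians of 0.01 and -0.06.

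The genes most like each member were sought by Pearson r of log2 CPM, centred within each tissue, over the 30 libraries. The points share the scaling and the cold groups, so r is a description. Adcy3 was followed most closely by Atp6v0a2 (r = 0.97) and Dnajc11 (0.96), and the r stayed above 0.9 within the 15 libraries of each tissue (0.97 and 0.98 in iWAT, 0.95 and 0.92 in BAT). Gpr3 was most like Manf and Slc19a2 (0.89 each), Pde4d had an r of 0.88 with Cul3, and Pde3b most like Chp1 (0.87) and Cul2 (0.85). For Adra1a, the likeness to Aifm1 and Immt (0.92 each) came from iWAT, with r of 0.96 and 0.97 there and 0.45 and 0.11 in BAT. Adrb3 was most like Ptprs (0.81) and Nicn1 (0.79), Pde4b most like Sparcl1 (0.8) and Cd200 (0.79), Adrb1 most like Cish (0.77) and Mycn (0.71), and Adra2a most like Trnp1 (0.74) and Mab21l1 (0.7). Between members, Adcy3 and Gpr3 had an r of 0.78, Adra1a and Pde4d 0.76 and Adcy3 and Pde4d 0.74, and Pde4b ran against Adcy3 (-0.71).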

How the data were processed

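The deposited gene counts were whole numbers of reads per gene that the authors had not scaled, and the deposited FPKM were those counts divided by gene length and library total (largest relative deviation 9.8e-15 over 9803 genes). Per the submitters' processing notes, HISAT2, HTSeq and GRCm39 were used. Versions, annotation and strand setting are not given in the sources used here. Per the labels, poly(A) RNA was made into libraries with a NEBNext Ultra II kit.

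Counts were tested in R 4.3.3 with edgeR 4.0.16 (quasi-likelihood F test, TMM factors, filterByExpr with a minimum count of 10, Benjamini-Hochberg adjustment over all genes). Each tissue had a fit of its 3 groups, while comparisons across depots used all 30 libraries. SE is the size of the log2 fold change over the root of F. Named pathway genes were, per comparison, among the 5 largest called rises and 5 largest called falls with at least 1 CPM in a group, plus the Adcy5, Adcy6 and Crem values outside that rule, chosen after they were seen, and for likeness the 2 genes of highest r. Some results under this rule are not reported here. The members and lists were chosen with earlier results of these data known. Alternatives used DESeq2 1.42.0, limma 3.58.1 on log2(FPKM + 1) and log2(FPKM + 0.1), other factors, filters and fits, a replicate block, and each library left out. The calling was tested on simulated data. In 60 within-group pairs, libraries differed far beyond sampling noise (chi-square over its degrees of freedom 14 to 181), and each was counted once. Totals of 25.3 to 41 M counts put a group floor of 3 counts at 0.0133 to 0.0226 CPM, which covers counting error only.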

Additional observations from a re-analysis of the deposited data

Results flagged for a closer look

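Of 53 sets of 5 libraries (a member in a group), 5 had 1 library set apart by a gap over 0.71 of the range. About 1 in 20 sets would be by chance. Adrb3 was at 307 CPM in library 4 of iWAT at 6 h, below the other 4 at 372 to 397 CPM. Adra2a was at 1.3 CPM in library 3 of iWAT at 24 h, with the others at 0.28 to 0.548 CPM, and at 0.241 CPM (7 counts) in library 5 of BAT at 24 h, with the others at 0 to 0.0396 CPM. Gpr3 was at 0.545 CPM in library 5 of iWAT at 6 h, with the others at 0 to 0.108 CPM. Pde3b was at 956 CPM in library 3 of iWAT at 24 h, with the others at 665 to 748 CPM.

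The log2 cold response at 24 h differed between BAT and iWAT by -0.98 for Adra1a, -0.57 for Pde3b and -1.34 for Pde4d, by the test of the difference itself in edgeR.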

How the results depend on the processing

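No call reversed its direction in any alternative. The 7 members called in iWAT at 6 h were 3 by limma on log2(FPKM + 1), 3 on log2(FPKM + 0.1), 4 in a fit of the 2 groups compared, 4 without the muscle-rich libraries (chosen after seeing the data) and 4 to 7 with 1 library left out. In BAT the 2 at 24 h against 22 °C were 1 with a filter of 1 CPM in 5 libraries, which left Gpr3 untested, and the 2 at 24 h against 6 h were 0 in the fit of all 30 libraries and 1 to 3 with 1 library left out. The 0 differences of the response at 6 h were 1 by DESeq2, 1 by limma on log2(FPKM + 1), 1 on log2(FPKM + 0.1), 1 with a replicate block and 0 to 1 with 1 library left out. Those limma calls were of Gpr3 and support nothing. The 3 differences at 24 h were 1 without the muscle-rich libraries. The cause of these changes was not tested. A fit of fewer libraries shows only that a call depends on the libraries left out.

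Same-numbered libraries did not deviate together as a rule (r from -0.212 to 0.246 in iWAT, -0.434 to 0.403 in BAT and -0.499 to 0.28 between tissues). Still, r was over 0.1 in 1 of 15 pairs in iWAT, 4 of 15 in BAT and 3 of 15 between tissues. With a replicate block 6, 7 and 0 members were called in the 3 iWAT comparisons (7, 7 and 0 without), 4, 3 and 2 in BAT (4, 2 and 2 without), 7, 9 and 8 between depots, as without it, and 1 and 3 for the responses at 6 h and 24 h (0 and 3 without).

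Over all genes, the calls in iWAT at 6 h (1769 higher, 1379 lower) were 575 higher and 4324 lower on log2(FPKM + 1), 582 and 4201 on log2(FPKM + 0.1) and 1250 and 2074 with upper-quartile factors, with medians of -0.15, -0.25 and -0.1 against -0.03. The 3148 calls were 1521 (without library 1 at 22 °C) to 4035 with 1 library left out and 1669 without the muscle-rich libraries. Without library 1 of iWAT at 22 °C, the 3145 calls of iWAT at 24 h were 2052, and the 1325 and 1100 differences of the response were 862 and 702. DESeq2 called 122 genes between 24 h and 6 h of iWAT, where edgeR called 1. Counts of 0 to 58 reads limit what can be said of Gpr3 and Adra2a.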
